A study of Mus musculus with 12 samples.

Results

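Matrix metalloproteinases (MMPs) and their tissue inhibitors (TIMPs) were followed in mouse kidney RNA through 10 genes chosen by name: Mmp2, Mmp3, Mmp7, Mmp8, Mmp9, Mmp10, Mmp14, Timp1, Timp2 and Timp3. All 10 symbols were found among the 24421 symbols of the deposited tables, and 17 other MMP and TIMP genes were read beside them. The libraries were made from whole kidneys of male C57BL/6 mice at 6 weeks old, in 4 groups of 3. Wild type (WT) and Tet2-/- mice, bred from carriers of the deleted allele, were each studied in healthy animals (baseline) and at 24 h after the right kidney had been made ischemic for 60 min and the left kidney taken out (IR). Tet2 encodes an enzyme that oxidizes 5-methylcytosine in DNA. The baseline mice had no operation, so surgery and removal of the left kidney cannot be told apart from ischemia in any comparison of IR with baseline.

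Levels are given as FPKM, the fragments per transcript length and library size, which can be compared between genes because they are per length. Total counts per library ran from 51007366 to 107969888. Tet2 itself was at 9.15, 6.25 and 7.33 FPKM in WT baseline libraries and at 9.24, 16.6 and 10.3 FPKM in Tet2-/- baseline libraries (log2 fold change 0.76, adjusted p = 0.321). After IR it was at 9.34, 3.97 and 3.86 FPKM in WT libraries and at 2.64, 3.20 and 1.76 FPKM in Tet2-/- libraries (log2 fold change -1.28, adjusted p = 0.0690). The transcript was therefore not lower in the baseline libraries labelled Tet2-/-, and every direction between genotypes below follows the labels. Proximal tubule markers, which define the bulk of kidney cortex, were abundant in every library, with a summed FPKM of 16 genes from 7126 to 8636 at baseline, 4741 to 5738 in WT kidneys after IR and 1903 to 2808 in kidneys labelled Tet2-/- after IR. In whole kidney RNA, fewer cells of a type and less RNA per cell cannot be told apart.

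MMPs are zinc endopeptidases that are made as inactive proenzymes and cleave matrix proteins, growth factors, cytokines and other proenzymes. Gelatinases (Mmp2, Mmp9), stromelysins (Mmp3, Mmp10), a neutrophil collagenase (Mmp8), matrilysin (Mmp7) and a membrane-anchored MMP (Mmp14) are distinguished by their substrates and domains. TIMPs bind the active site of MMPs. Timp3 is held in the extracellular matrix and also inhibits ADAM proteases, Timp1 is the inducible member that binds proMmp9, and Timp2 forms a complex with Mmp14 that activates proMmp2. In injured kidney, MMPs and TIMPs are known for their part in breakdown of the tubular basement membrane, leukocyte entry and later scarring.

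Mmp3, Mmp10, Mmp8 and Mmp7 lie within 1 cluster of MMP genes on chromosome 9 (mm9 coordinates as in the files). Mmp3 (NM_010809) runs from 7445822 to 7455974, Mmp10 (NM_019471) from 7502342 to 7510242, Mmp8 (NM_008611) from 7558429 to 7568486 and Mmp7 (NM_010810) from 7692111 to 7699416, all on the plus strand. Promoter sequences were available for 8 of the 10 genes in a RefSeq table of build GRCm38.p6, and not for Mmp2 and Mmp9. The 120 bases before the start are shown for the 4 cluster genes because they rose together in the data below, and for Mmp13 as a cluster gene that fell in kidneys labelled Tet2-/-. Capitals mark matches to the AP-1 motif TGANTCA, which reads the same on both strands, and the sequences are from the plus strand of GRCm38.p6.
Mmp3, chr9:7445702-7445821: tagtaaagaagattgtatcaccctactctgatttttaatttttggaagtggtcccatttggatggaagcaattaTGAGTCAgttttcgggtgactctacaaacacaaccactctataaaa
Mmp10, chr9:7502222-7502341: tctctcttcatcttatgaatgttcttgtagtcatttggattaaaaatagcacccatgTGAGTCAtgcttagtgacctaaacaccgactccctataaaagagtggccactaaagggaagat
Mmp7, chr9:7691970-7692089: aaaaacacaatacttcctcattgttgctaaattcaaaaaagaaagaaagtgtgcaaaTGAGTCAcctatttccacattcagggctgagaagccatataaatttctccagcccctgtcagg
Mmp8, chr9:7558309-7558428: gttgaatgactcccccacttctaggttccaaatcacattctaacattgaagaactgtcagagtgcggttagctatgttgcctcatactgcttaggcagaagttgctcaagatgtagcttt
Mmp13, chr9:7272394-7272513: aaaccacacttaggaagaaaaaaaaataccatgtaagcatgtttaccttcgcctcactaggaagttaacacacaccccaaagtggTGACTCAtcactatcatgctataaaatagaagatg
Mmp3, Mmp10 and the first of 2 listed starts of Mmp7 held this motif at 46, 63 and 63 bases before the start, each as TGAGTCA, and Mmp13 held TGACTCA at 35 bases before the start. Mmp12, a cluster gene that was not called in any comparison, also held the motif, at 44 bases before 1 of its 2 starts. Mmp8 had no match to these letters in the 250 bases before its start, nor had the second start of Mmp7, Mmp14, Timp1, Timp2 or Timp3. Of 32851 promoters in the table, 6.75% held the motif in the same 250 bases. The C/EBP motif TTGCNNAA, searched on both strands, matched in Mmp3, Mmp7, Mmp8, Mmp10 and 1 start of Mmp12, and in 9.56% of all promoters. TATAAA matched in Mmp3, Mmp7, Mmp10 and also Mmp13, and in 12.4% of all promoters. The STAT motif TTCNNNGAA (7.02% of all promoters) and a NF-kB motif (3.90%) matched in none of the 8 genes, and no match of 1 motif overlapped that of another in these genes.

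Timp1 and Timp3 are shown as the TIMP that rose with IR in both genotypes and the TIMP with the highest level, and neither has capitals because neither holds the AP-1 motif.
Timp1, chrX:20870046-20870165: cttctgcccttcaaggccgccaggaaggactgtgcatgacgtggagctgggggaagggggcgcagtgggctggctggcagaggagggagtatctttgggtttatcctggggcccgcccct
Timp3, chr10:86300292-86300411: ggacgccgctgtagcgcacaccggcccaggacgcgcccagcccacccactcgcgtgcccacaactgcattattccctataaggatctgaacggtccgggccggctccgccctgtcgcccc
Within 250 bases before the start, Timp3 had 18 CpG dinucleotides and Timp2 had 21, more than 78.3% and 83.7% of all promoters, against a median of 6 over all promoters. Timp1 had 6 and Mmp14 had 10. Mmp3 and Mmp10 each had 1, Mmp8 had 4, and the Mmp7 starts had none and 7, the second of them more than Timp1.

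At baseline, the inhibitors outweighed the proteinases in transcript level and Timp3 stood far above all other members. Timp3 (NM_011595; chromosome 10, 85763157 to 85812250, plus strand) was at 279, 268 and 294 FPKM in WT replicates 1, 2 and 3 and at 218, 267 and 263 FPKM in the replicates labelled Tet2-/-. It made up 94.3% to 97.2% of the summed FPKM of the 3 TIMP genes in every baseline library. Timp2 (NM_011594; chromosome 11, 118162375 to 118216725, minus strand) came next at 12.6, 15.9 and 8.28 FPKM in WT and 7.99, 9.17 and 7.34 FPKM in the group labelled Tet2-/-. Its levels overlapped with neither those of Timp3 above nor those of Mmp2 below it in either genotype.

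Among the members, Mmp2 and Mmp14 were the 2 proteinases with an appreciable baseline level. Mmp2 (NM_008610; chromosome 8, 95351227 to 95377319, plus strand) was at 1.69, 1.75 and 0.868 FPKM in WT baseline libraries and 1.51, 2.86 and 1.41 FPKM in those labelled Tet2-/-. Mmp14 (NM_008608; chromosome 14, 55050441 to 55060095, plus strand) was at 1.58, 1.44 and 1.29 FPKM and at 1.01, 1.62 and 1.11 FPKM. The levels of Mmp2 and Mmp14 overlapped in both genotypes, and together they made up 83.3% to 97.4% of the summed FPKM of the 7 MMP genes at baseline. Timp1 (NM_011593; chromosome X, 20447292 to 20451863, plus strand) was at 0.402, 0.374 and 0.115 FPKM in WT and 0.273, 0.544 and 0.211 FPKM in the group labelled Tet2-/-. Its 3 listed transcripts share 1 locus and were counted from largely the same reads, and the one with the highest total was used. Mmp9 (NM_013599; chromosome 2, 164773719 to 164781349, plus strand) stayed at or under 0.087 FPKM, Mmp3 at or under 0.116 FPKM, Mmp8 at or under 0.023 FPKM and Mmp10 at or under 0.006 FPKM in all 6 baseline libraries.

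No member differed between genotypes at baseline under the thresholds used throughout, an adjusted p under 0.05 from edgeR's quasi-likelihood test and an absolute log2 fold change over 1. Of the 10 genes, 6 passed edgeR's filter on low counts (Mmp2, Mmp9, Mmp14, Timp1, Timp2 and Timp3), and 0 were called in either direction, against a background of 0.0124% of 16086 genes called higher and 0% called lower. Over all genes, 1891 had an unadjusted p under 0.05, and none of the 6 members did. On the log2 scale Mmp9 differed by 0.60 ± 0.58 (standard error, SE; adjusted p = 0.662) and Mmp2 by 0.52 ± 0.36 (adjusted p = 0.564). Timp2 had a log2 fold change of -0.49 ± 0.22 (adjusted p = 0.447). DESeq2 also called 0 of the members.

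Among the members, Mmp3 was the one proteinase whose baseline levels were separated upward by genotype. It was at 0.029, 0.025 and 0.021 FPKM in WT libraries and at 0.116, 0.1 and 0.053 FPKM in the libraries labelled Tet2-/-, so every library of the second group lay above every WT library, as did 3.06% of the genes tested. These levels rest on 12.5 counts in the 3 WT libraries and 51.5 counts in the others, and the filter removed the gene. Without the filter its log2 fold change was 1.97 ± 0.53 (adjusted p = 0.243 from edgeR). Timp3 lay lower in every library labelled Tet2-/- than in every WT library in FPKM, as did 16.5% of the genes tested, with a log2 fold change of -0.08 ± 0.15 (adjusted p = 0.832). Mmp7 went the other way without separation, at 0.131, 0.012 and 0.374 FPKM in WT and 0.015, 0.050 and 0.012 FPKM in the group labelled Tet2-/-.

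**Figure D1:**
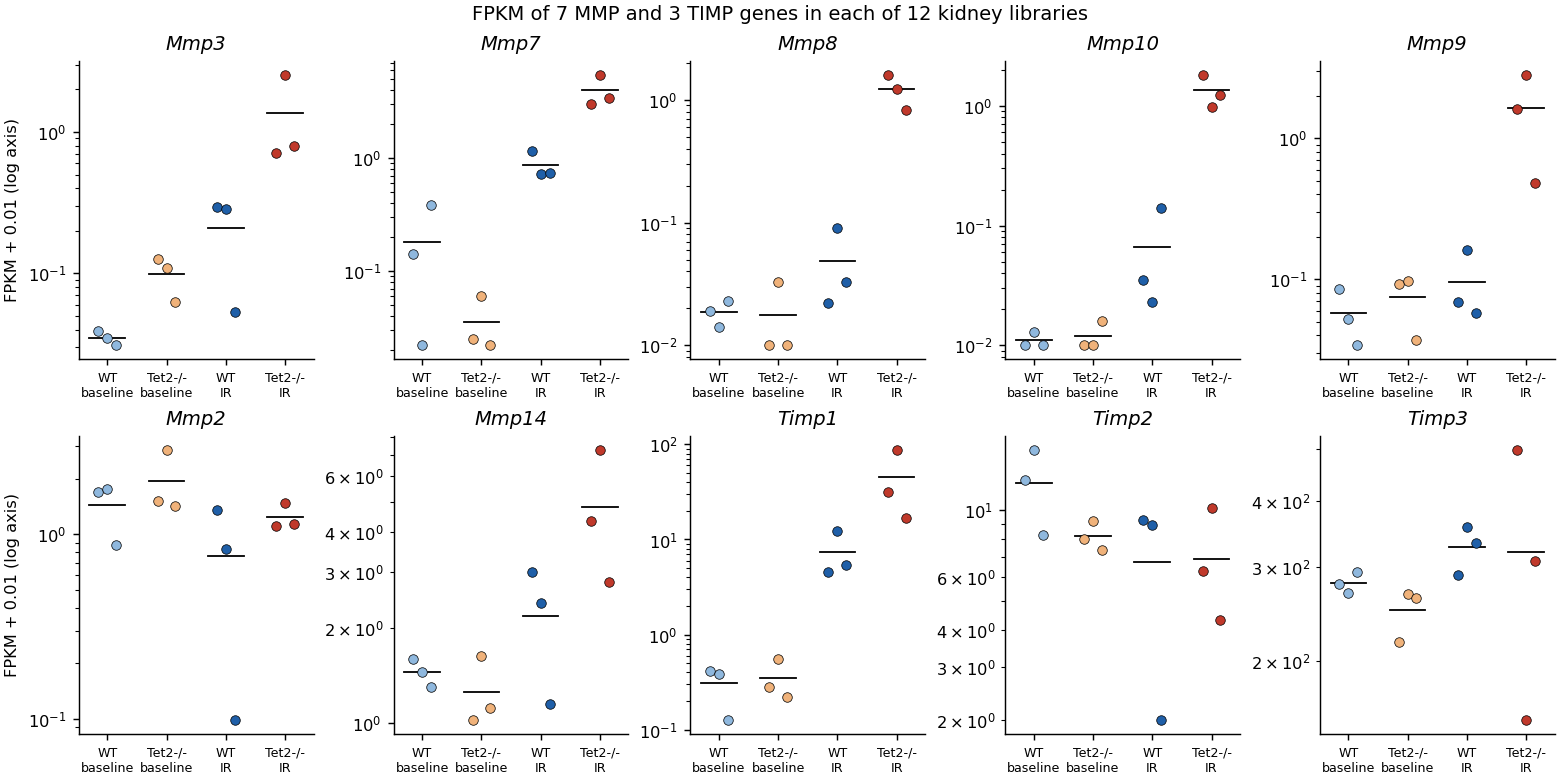
FPKM + 0.01 on log axes for each of the 10 genes, with 1 point per library (3 per group, replicates 1 to 3 from left to right) and a line at the group mean. The 3 libraries labelled Tet2-/- after IR lie above all 3 WT libraries after IR for Mmp3, Mmp7, Mmp8, Mmp9, Mmp10 and Timp1, while the groups overlap for Mmp2, Mmp14, Timp2 and Timp3.

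After IR, 5 of the 10 members were higher in kidneys labelled Tet2-/- than in WT kidneys: Mmp8, Mmp10, Mmp9, Mmp7 and Timp1. None was lower. The background was 2.3% of 16186 genes called higher and 3.85% called lower. All 10 members passed the filter here, but Mmp8, Mmp10 and Mmp3 passed through their counts in the group labelled Tet2-/-, so their presence among the genes tested already depends on that group. In FPKM, 6 members lay higher in every library labelled Tet2-/- than in every WT library, as did 22% of the genes tested. With no fold change threshold the same 5 members were called, against 3.51% of genes higher and 6.17% lower. The median log2 fold change was 2.30 over the 10 members and 0.04 over all genes tested.

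Mmp8, the collagenase stored in neutrophil granules, had the largest log2 fold change between the genotypes among the 10 members. It was at 0.012, 0.080 and 0.023 FPKM in WT libraries after IR and at 1.60, 1.21 and 0.817 FPKM in those labelled Tet2-/-. The lowest library of the second group was above the highest of the first, and the means were 0.0383 ± 0.0365 and 1.21 ± 0.389 FPKM (SD, n = 3), a ratio of 31.5. The log2 fold change was 4.87 ± 0.68 (SE, adjusted p = 0.0131 from edgeR). The WT libraries together held 23.5 counts of Mmp8 against 1000 counts in the others.

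Mmp9, gelatinase B, which neutrophils and macrophages also release, was at 0.059, 0.152 and 0.048 FPKM in WT libraries after IR and at 1.61, 2.83 and 0.469 FPKM in those labelled Tet2-/-. The groups did not overlap, and the spread among the 3 libraries labelled Tet2-/- was wide, with replicate 3 far below replicate 2. The log2 fold change was 4.10 ± 0.73 (adjusted p = 0.0218), and it ranged from 3.52 without replicate 2 labelled Tet2-/- to 4.74 without WT replicate 2. Mmp9 had 66.5 counts over the WT libraries and 1853 over the others.

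Mmp10 and Mmp3, stromelysins that can activate other proMMPs, were nearly silent in WT kidneys. Mmp10 was at 0.025, 0.013 and 0.129 FPKM in WT libraries after IR and at 1.81, 0.970 and 1.23 FPKM in those labelled Tet2-/-, with no overlap and a log2 fold change of 4.39 ± 0.85 (adjusted p = 0.0269). WT replicate 3 held 17.5 of the 22.5 WT counts, and the log2 fold change was 6.06 without it and 3.87 without WT replicate 2. Mmp3 was at 0.286, 0.274 and 0.043 FPKM in WT and at 0.706, 2.54 and 0.787 FPKM in the others. Its groups did not overlap either, but its log2 fold change of 2.64 ± 0.76 had an adjusted p of 0.0713 and was not called, and it was 1.89 without replicate 2 labelled Tet2-/-. DESeq2 called it (adjusted p = 0.00365), as did a single edgeR fit of all 12 libraries (adjusted p = 0.0153).

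Mmp7, the smallest MMP of the list, which epithelial cells are known to make, was at 1.14, 0.716 and 0.732 FPKM in WT libraries after IR and at 3.01, 5.50 and 3.44 FPKM in those labelled Tet2-/-. The groups did not overlap, and replicate 2 labelled Tet2-/- stood above the other libraries. The log2 fold change was 2.10 ± 0.35 (adjusted p = 0.0188). An RNA gene on the opposite strand, AV064505, overlaps Mmp7 and reached at most 1.499 FPKM. Whether the counting used strand is not given in the sources used here, so reads of the pair cannot be told apart where they overlap.

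Timp1 was the inhibitor that differed between genotypes after IR. It was at 4.53, 12.2 and 5.36 FPKM in WT libraries and at 31.4, 88.0 and 16.9 FPKM in those labelled Tet2-/-. The groups did not overlap, the nearest libraries being the second WT replicate and the third replicate labelled Tet2-/-. The log2 fold change was 2.50 ± 0.62 (adjusted p = 0.0494), close to the threshold, and the call was lost in 9 of 16 alternatives. These were library sizes alone (adjusted p = 0.0536), upper quartile scaling (0.0516), limma on log2(FPKM + 1) (0.0663) and log2(FPKM + 0.1) (0.0530), and 5 of 6 fits with 1 library left out (up to 0.149, with log2 fold changes from 1.67 to 2.998).

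Mmp2, Mmp14, Timp2 and Timp3 did not pass the test between genotypes after IR. Mmp14 was at 2.995, 2.39 and 1.14 FPKM in WT and 4.32, 7.28 and 2.77 FPKM in libraries labelled Tet2-/-, with overlap at the lower end and a log2 fold change of 1.04 ± 0.40 (adjusted p = 0.143). Mmp2 was at 1.34, 0.827 and 0.088 FPKM and at 1.10, 1.46 and 1.12 FPKM (log2 fold change 0.65 ± 0.75, adjusted p = 0.602). Its log2 fold change ranged from 0.12 to 1.36 with 1 library left out. Timp2 was at 9.24, 8.89 and 1.99 FPKM and at 6.25, 10.1 and 4.29 FPKM, and its log2 fold change of -0.04 ± 0.51 changed sign with the scaling. Timp3 was at 290, 358 and 334 FPKM and at 499, 155 and 309 FPKM, a wider spread in the group labelled Tet2-/- than the distance between the means. The third WT library after IR, which was lowest of all for Mmp2 and Timp2 and lowest of those after IR for Mmp14, was also lowest of the 12 libraries in its mean log2 level of 15 fibroblast markers (-0.18, against 0.74 to 2.60 in the other 11). It was lowest in endothelial markers (0.30, against 2.03 or more) and podocyte markers (-1.01, against 0.64 or more) as well, and the part of these cells in the Mmp2, Mmp14 and Timp2 values was not tested.

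These calls depended on the number of libraries. With 1 library left out, from 2 to 4 members were called, 2 each without WT replicate 1, WT replicate 3, or replicate 1 or 2 labelled Tet2-/-. Mmp8 kept its call in all 16 alternatives (highest adjusted p = 0.0448) and Mmp7 lost it only without WT replicate 3 (adjusted p = 0.0601). Mmp9 lost it without WT replicate 1 or 3 and without replicate 1 or 2 labelled Tet2-/- (adjusted p from 0.0506 to 0.0812), and also with limma on log2(FPKM + 1) (0.0678). Mmp10 lost it without WT replicate 1 and without each replicate labelled Tet2-/- (0.0514 to 0.0879). Timp1 lost it in every fit with 1 library left out except that without replicate 3 labelled Tet2-/- (adjusted p = 0.0462). The log2 fold change of Mmp8 was 5.99 without WT replicate 2, which held 17 of its 23.5 WT counts.

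**Figure D2:**
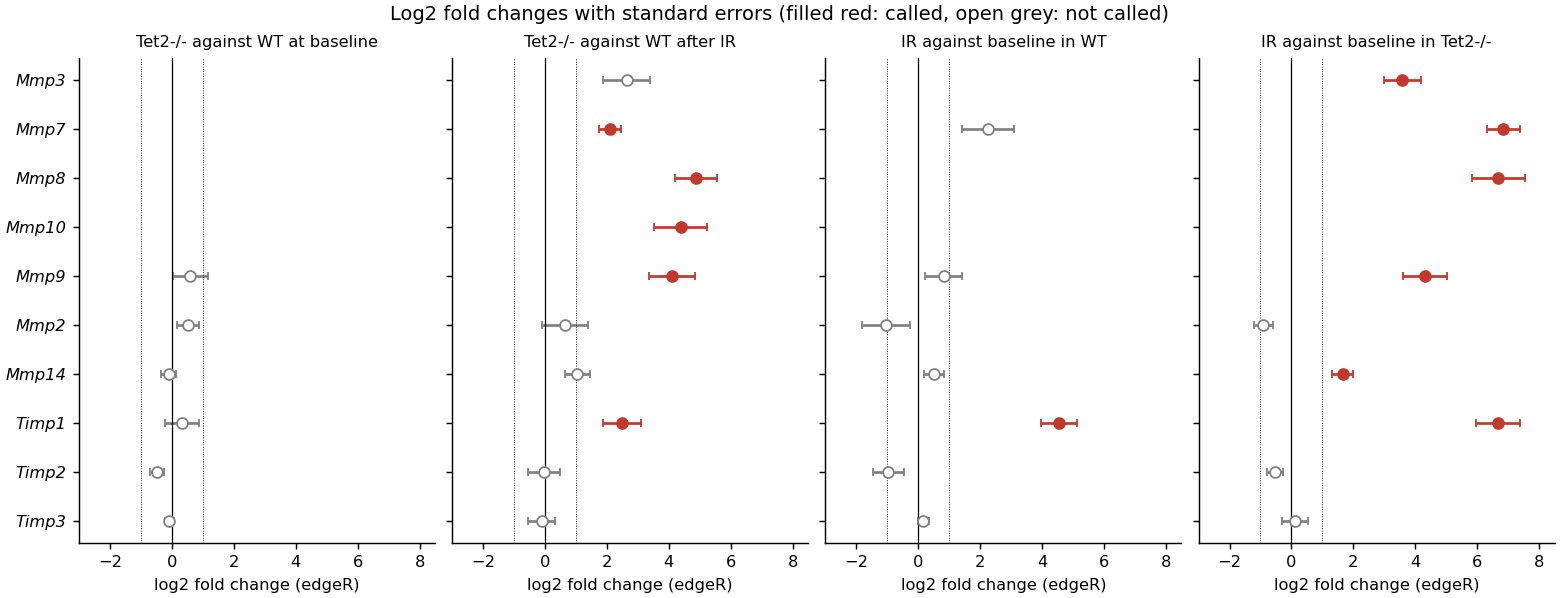
Log2 fold changes from edgeR (points) with their standard errors (bars) for each gene in 4 comparisons, 6 libraries each, with dotted lines at the fold change threshold. Genes removed by the filter have no point, and Mmp10 has none in the last panel because its baseline group held 1 count. Filled red points passed both thresholds: none at baseline, 5 between genotypes after IR, Timp1 within WT, and 6 of the 7 called genes shown within the group labelled Tet2-/-.

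In WT kidneys, IR raised Timp1 and no MMP gene passed the test. Timp1 went from 0.115 to 0.402 FPKM at baseline to 4.53 to 12.2 FPKM after IR, without overlap, and the ratio of the means was 24.8. Its log2 fold change was 4.56 ± 0.59 (adjusted p = 0.0151). The background was 1.46% of 16015 genes called higher and 0.887% called lower, and of the 10 members 7 passed the filter. In FPKM, Timp1, Mmp7, Mmp3 and Mmp10 lay higher in every library after IR than in every baseline library, as did 18.9% of the genes tested, although the filter removed Mmp3 and Mmp10. No member lay lower in this way, against 10.4% of the genes tested. With no fold change threshold 1.88% of the genes were higher and 1.14% lower, and Timp1 was still the one member called.

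Mmp7 went from 0.012 to 0.374 FPKM at baseline to 0.716 to 1.14 FPKM after IR in WT kidneys, with a log2 fold change of 2.25 ± 0.85 (adjusted p = 0.181). With 1 library left out this value ranged from 1.73 to 3.54. The spread among the 3 baseline libraries was about as large as their mean, 0.172 ± 0.185 FPKM (SD, n = 3). Mmp3 had a log2 fold change of 2.93 ± 0.73 without the filter (adjusted p = 0.0849), and Mmp10 had 0.5 counts over the WT baseline libraries and 22.5 after IR. Mmp9 had 0.82 ± 0.61 (adjusted p = 0.461) and Mmp14 0.51 ± 0.32 (adjusted p = 0.383) as log2 fold changes. Mmp2 and Timp2 had log2 fold changes of -1.03 ± 0.77 (adjusted p = 0.466) and -0.96 ± 0.51 (adjusted p = 0.312). With the replicate number as a block, a fit that pairs same-numbered libraries of both groups, Timp2 had a log2 fold change of -1.17 and passed (adjusted p = 0.0476). The call of Timp1 was lost without WT baseline replicate 1, 2 or 3 (adjusted p = 0.0584, 0.0622 and 0.0508), at log2 fold changes from 4.19 to 4.83.

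In kidneys labelled Tet2-/-, IR raised 7 of the 10 members: Mmp7, Mmp8, Mmp9, Mmp10, Mmp3, Mmp14 and Timp1. None was lower at the fold change threshold, and the background was 12.7% of 16359 genes called higher and 11.6% called lower. In FPKM these 7 genes lay higher in every library after IR than in every baseline library, as did 40.5% of the genes tested, so a lack of overlap alone was common in this comparison. Mmp7, Mmp8 and Mmp10, with 8.5, 8.5 and 1 counts over the baseline libraries, passed the filter through the libraries after IR. Mmp3 and Mmp9, with 9 and 8 counts in baseline replicate 3, also needed libraries after IR to pass. The count of 7 therefore rests in part on genes that entered because they were high after IR. All 7 calls were kept in all 16 alternatives. This comparison and the one within WT have no library in common, but each shares libraries with the genotype comparisons, so agreement between them is not independent.

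Mmp7 changed from 0.015, 0.050 and 0.012 FPKM to 3.01, 5.50 and 3.44 FPKM, a ratio of means of 155 and a log2 fold change of 6.85 ± 0.53 (adjusted p = 0.000161). Timp1 changed from 0.273, 0.544 and 0.211 FPKM to 31.4, 88.0 and 16.9 FPKM, a log2 fold change of 6.67 ± 0.70 (adjusted p = 0.000464). The log2 fold change of Mmp7 was 7.78 without baseline replicate 2, and that of Timp1 was 5.88 without replicate 2 after IR. For both genes every library after IR lay far above every baseline library. Mmp8 was listed at 0 in baseline replicates 1 and 3 and at 0.023 FPKM in replicate 2, and its log2 fold change was 6.69 ± 0.86 (adjusted p = 0.000972). That value rests on the 8.5 counts of replicate 2, and without this library, when the baseline group held no count, the fit gave 11.1, which is no bound. Mmp10 had 1 count over the baseline libraries against 762 after IR, a ratio of 715 per library size with a 95% exact interval from 128 to 28271 that covers counting error only.

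Mmp9 rose from 0.0653 ± 0.0333 to 1.63 ± 1.18 FPKM (SD, n = 3; log2 fold change 4.31 ± 0.71, adjusted p = 0.00273) and Mmp3 from 0.0897 ± 0.0327 to 1.34 ± 1.03 FPKM (log2 fold change 3.59 ± 0.60, adjusted p = 0.00278). With 1 library left out the log2 fold change of Mmp3 ranged from 2.85 to 3.86. Mmp14, which anchors in the membrane and activates proMmp2, rose from 1.01 to 1.62 FPKM to 2.77 to 7.28 FPKM, with a log2 fold change of 1.65 ± 0.34 (adjusted p = 0.00708). Its target Mmp2 had a log2 fold change of -0.92 ± 0.31 (adjusted p = 0.0450), under the fold change threshold. Without that threshold it would count as lower, as would 20.3% of the genes tested, against 22.9% higher. Timp2 (-0.53 ± 0.25, adjusted p = 0.126) and Timp3 (0.12 ± 0.42, adjusted p = 0.828) did not pass on the log2 fold change scale, and Timp3 had replicates at 499, 155 and 309 FPKM after IR.

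The IR change of 2 members differed between genotypes in a test of the difference itself. In the interaction of genotype and IR, fitted to the 12 libraries together and judged by an adjusted p below 0.05 alone, Mmp7 had a log2 difference of 4.63 ± 1.11 (adjusted p = 0.0290) and Mmp9 of 3.52 ± 0.98 (adjusted p = 0.0466). The background was 3.79% of 16741 genes called higher and 5.39% called lower. Mmp7 therefore rose more in the group labelled Tet2-/-, where its baseline was also lower (0.0257 against 0.172 FPKM in the means). Mmp9 was similar in both baseline groups and in WT kidneys after IR, with means of 0.0473, 0.0653 and 0.0863 FPKM, against 1.63 FPKM in the libraries labelled Tet2-/- after IR.

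For the other members the difference in IR change was not called. Mmp8 had a log2 difference of 4.74 ± 1.47 (adjusted p = 0.0659), which passed in 5 of 21 alternatives. These were DESeq2 (adjusted p = 0.00383), limma on log2(FPKM + 1) (0.00549) and log2(FPKM + 0.1) (0.00253), and the fits without WT replicate 2 after IR (5.89, adjusted p = 0.0275) and without baseline replicate 2 labelled Tet2-/- (adjusted p = 0.0259), where that group held no Mmp8 count and the fitted size has no meaning. Timp1 had a log2 difference of 2.15 ± 0.89 (adjusted p = 0.144), Mmp14 of 1.17 ± 0.49 (adjusted p = 0.150) and Mmp3 of 0.68 ± 1.02 (adjusted p = 0.706). That of Timp1 ranged from 1.30 to 2.68 with 1 library left out. Mmp2, Timp2 and Timp3 had 0.16, 0.47 and 0.01. Mmp10 was poorly estimated by edgeR, with a standard error of 10.8 on so few baseline counts, and passed with limma on log2(FPKM + 1) (1.13, adjusted p = 0.00544) and log2(FPKM + 0.1) (3.23, adjusted p = 0.00369). With the replicate number as a block, Timp1 passed (2.08, adjusted p = 0.0350). Without WT baseline replicates 2 and 3, whose adipocyte marker level was high, neither Mmp7 (adjusted p = 0.0683) nor Mmp9 (adjusted p = 0.123) passed, and with 1 library left out from 0 to 3 members did. Mmp7 lost the call in 7 of 21 alternatives and Mmp9 in 12 of 21, of which 6 and 10 left out 1 library.

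Within the 7 MMP genes followed here, the makeup of the transcript pool differed between the groups. The summed FPKM of the 7 MMP genes was 2.59 to 3.51 in WT and 2.62 to 4.75 in labelled Tet2-/- kidneys at baseline, 2.20 to 5.86 in WT kidneys after IR and 10.6 to 21.8 in kidneys labelled Tet2-/- after IR. Mmp2 and Mmp14 together made up 83.3% to 97.4% of that sum at baseline, against 55.7% to 74.0% in WT and 36.6% to 40.1% in the group labelled Tet2-/- after IR. Mmp3, Mmp7, Mmp8 and Mmp10 of chromosome 9 made up 1.35% to 15.8%, 24.3% to 42.1% and 46.9% to 59.0% of it in the same order. The 17 other MMP and TIMP genes are outside these sums. They added up to 9.76 to 15.3 FPKM at baseline, 8.48 to 12.7 FPKM in WT kidneys after IR and 13.4 to 20.1 FPKM in kidneys labelled Tet2-/- after IR. These ranges are descriptions of each library and were not tested.

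The inhibitor pool remained mostly Timp3. The summed FPKM of the 3 TIMP genes was 226 to 303 at baseline, 304 to 379 in WT kidneys after IR and 253 to 537 in kidneys labelled Tet2-/- after IR. Timp1 was at most 0.196% of it at baseline and 1.49% to 3.23% in WT after IR. In the group labelled Tet2-/- after IR it was 5.84% and 5.12% in replicates 1 and 3 and 34.8% in replicate 2, where Timp3 was lowest. After IR, Timp1 took the second place in the order of levels in both genotypes. In WT its range overlapped with that of Timp2, and in the group labelled Tet2-/- it did not.

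**Figure D3:**
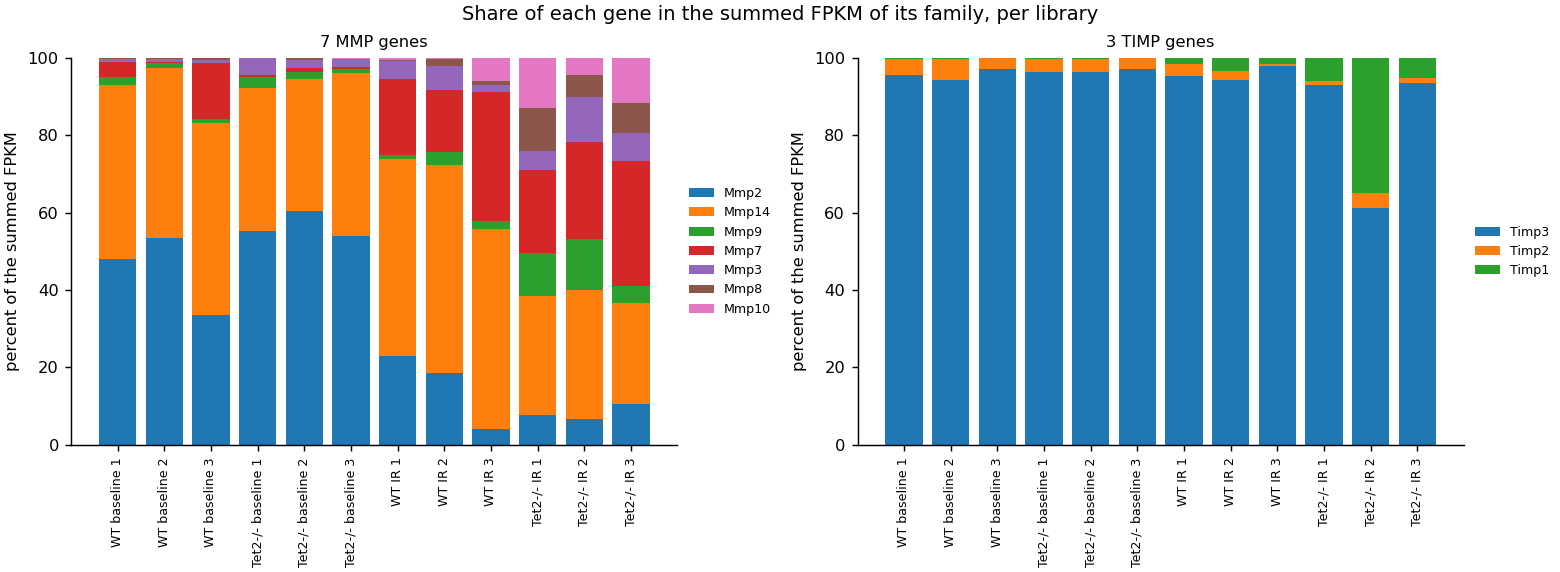
Percent of the summed FPKM of 7 MMP genes (left) and 3 TIMP genes (right) taken by each gene, with 1 stacked bar for each of the 12 libraries. Mmp2 and Mmp14 fill 83.3% to 97.4% of the left bars at baseline and 36.6% to 40.1% in the libraries labelled Tet2-/- after IR, and Timp3 fills most of every right bar.

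The cluster on chromosome 9 held 11 genes from Mmp13 (from 7272514) to Mmp7 (to 7699416 on mm9), and they did not move as 1 unit. In the order Mmp13, Mmp12, Mmp1b, Mmp3, Mmp1a, Mmp10, Mmp8, Mmp27, Mmp20, AV064505 and Mmp7, Mmp1a and Mmp1b had no count in any library. In kidneys labelled Tet2-/-, IR raised Mmp3, Mmp10, Mmp8 and Mmp7 and also their neighbours Mmp27 (adjusted p = 0.0108) and Mmp20, the tooth enamel MMP (adjusted p = 0.00198). Mmp27 had 5.5 counts over the baseline libraries and 93 after IR, and Mmp20 had 1 and 81.5, so both passed the filter through the libraries after IR and no fold change is given for them. Mmp13, collagenase 3, at the far end fell in the same comparison (log2 fold change -2.64 ± 0.68, adjusted p = 0.0170), from 0.286, 0.613 and 0.301 FPKM to 0.071, 0.146 and 0.014 FPKM. Mmp12, the macrophage elastase next to it, was not called and its group means lay between 0.112 and 0.128 FPKM. AV064505, which overlaps both Mmp20 and Mmp7 on the opposite strand, had 2.5 counts over the baseline libraries and 177 after IR (adjusted p = 0.00111). It too passed the filter through the libraries after IR.

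**Figure D4:**
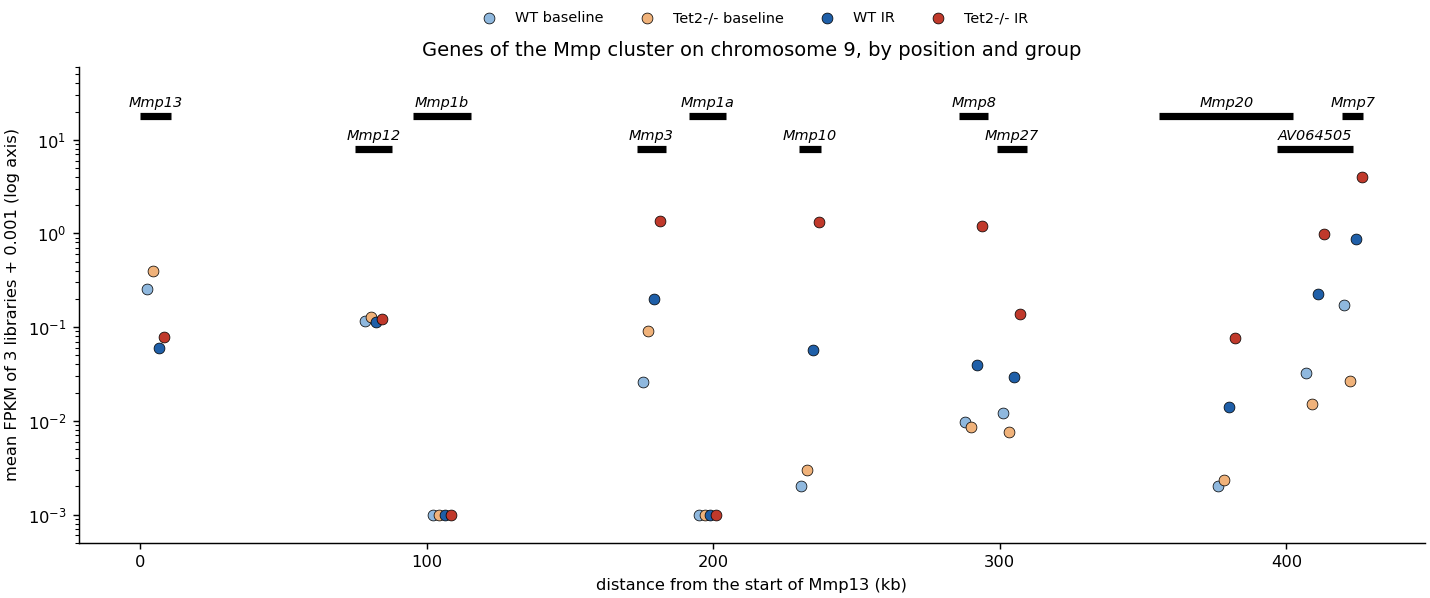
Mean FPKM + 0.001 (log axis, 3 libraries per group) of the 11 cluster genes by distance from the start of Mmp13 in kb, with black bars for the genes' extents and points set apart slightly by group. From Mmp3 rightwards the genes with counts are highest in the group labelled Tet2-/- after IR, whereas the mean of Mmp13 is lower after IR than at baseline and Mmp12 lies between 0.112 and 0.128.

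Outside the members, 17 MMP and TIMP genes were read as a list chosen for its name. After IR, 1 of the 12 tested was called higher between genotypes, Mmp19 (1.38, 1.18 and 1.03 FPKM in WT, 2.91, 3.87 and 2.53 FPKM in libraries labelled Tet2-/-; log2 fold change 1.27, adjusted p = 0.0176), and 0 were lower. In kidneys labelled Tet2-/-, IR raised 3 of 12 (Mmp19, and Mmp20 and Mmp27, which were tested only because of their counts after IR) and lowered 2 (Mmp13 and Mmp11, the latter with a log2 fold change of -1.31 and an adjusted p of 0.0226). No gene of the list was called at baseline, within WT or in the interaction. The median log2 fold change of the list after IR was 0.51 between genotypes, against 2.30 for the 10 members. Among ADAM and ADAMTS proteases, relatives that Timp3 inhibits in part, 1 of 26 tested genes was higher between genotypes after IR and 0 were lower. That gene was Adam8, a protease of myeloid cells (log2 fold change 2.34, adjusted p = 0.0265), which also rose with IR in WT (2.24, adjusted p = 0.0371) and in the group labelled Tet2-/- (4.39, adjusted p = 0.000366). In the latter group IR raised 4 of 28 and lowered 5, among them Adamts8 (-3.46, adjusted p = 0.00289).

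Of 31 genes that activate, bind or clear MMPs, 26 were tested between genotypes after IR, 4 were higher and 1 was lower. Cd44, a cell surface receptor that can hold Mmp9, was higher (log2 fold change 2.46, adjusted p = 0.0176), as was Itgb3 (2.05, adjusted p = 0.0178). Lrp2, the megalin receptor of the proximal tubule that takes up proteins from the filtrate, was lower (-1.81, adjusted p = 0.0114). In kidneys labelled Tet2-/-, IR lowered 3 of 27 and raised 12, among them Plaur, the urokinase receptor (4.04, adjusted p = 0.000143), and Lcn2 (9.13, adjusted p = 8.15e-05). Lcn2 also rose with IR in WT (6.17, adjusted p = 0.0135).

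Of 34 matrix and cell surface substrates, 31 were tested between genotypes after IR and 1 was called, Tnc (tenascin C; log2 fold change 2.80, adjusted p = 0.0402). IR raised 7 of 32 and lowered 3 in kidneys labelled Tet2-/-, with Spp1 (osteopontin, 5.68, adjusted p = 0.000251) higher and Lama2 (a laminin chain, -2.53, adjusted p = 0.00246) lower. Spp1 also rose with IR in WT (3.73, adjusted p = 0.0389). Of 25 genes known to induce MMP transcription, 24 were tested between genotypes after IR, 4 were higher and 0 were lower, with Il6 (4.56, adjusted p = 0.0228), Il1b (2.59, adjusted p = 0.0194) and Ets1 (1.39, adjusted p = 0.0306) among them. Il6, at mean levels of 0.0533 FPKM in WT and 1.38 FPKM in the group labelled Tet2-/- after IR, was tested through the latter, where it is high. Fosl1, a subunit of AP-1, was at 0.652, 3.85 and 6.07 FPKM in WT and 37.5, 22.0 and 23.6 FPKM in the group labelled Tet2-/- after IR, with a log2 fold change of 2.84 that did not pass (adjusted p = 0.0540). With IR it rose in WT (4.34, adjusted p = 0.0465) and in the latter group (7.34, adjusted p = 4.40e-05). These lists were counted only, and the same counts over all genes are the backgrounds given above.

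Some lists of cell markers also held called genes in these comparisons. Of 20 neutrophil markers, 17 were tested between genotypes after IR and 12 were higher, but only 6 passed the filter at baseline and 9 within WT, so the others were tested through the group labelled Tet2-/- after IR, where they are high. Called higher were, among others, Retnlg (log2 fold change 5.01), Il1r2 (4.78) and S100a8 (3.93). Lcn2, which injured tubules also make, dominated the sum of that list, so it was set aside. The summed FPKM of the other 19 markers was 0.971 to 3.52 at baseline, 4.75 to 10.5 in WT kidneys after IR and 82.0 to 142 in kidneys labelled Tet2-/- after IR. Granule genes of immature neutrophils stayed low in the last group, where Elane reached at most 0.029 FPKM and Mpo 0.023 FPKM, and Ly6g, a mature marker, was at 0.320, 0.157 and 0.150 FPKM. Of 20 macrophage markers, 4 were higher between genotypes after IR (Chil3, Itgam and Cd14 among them) and 0 were lower, and their summed FPKM was 44.4 to 92.6 in WT and 80.3 to 306 in the group labelled Tet2-/-. Of 16 proximal tubule markers 7 were lower and 0 were higher, and of 15 tubular injury markers 2 were higher. With IR in the group labelled Tet2-/-, 16 of 17 neutrophil (with the same limit), 13 of 15 tubular injury and 8 of 9 podocyte markers were higher, and 12 of 16 proximal tubule markers were lower. The summed FPKM of the podocyte markers was 20.8 to 38.3 at baseline, 5.66 to 35.8 in WT kidneys after IR and 58.4 to 118 in kidneys labelled Tet2-/- after IR. Between genotypes after IR their median log2 fold change was 1.68, with 0 of 9 called. The part of cell makeup in the levels of Mmp8, Mmp9 or any other member was not tested.

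**Figure D5:**
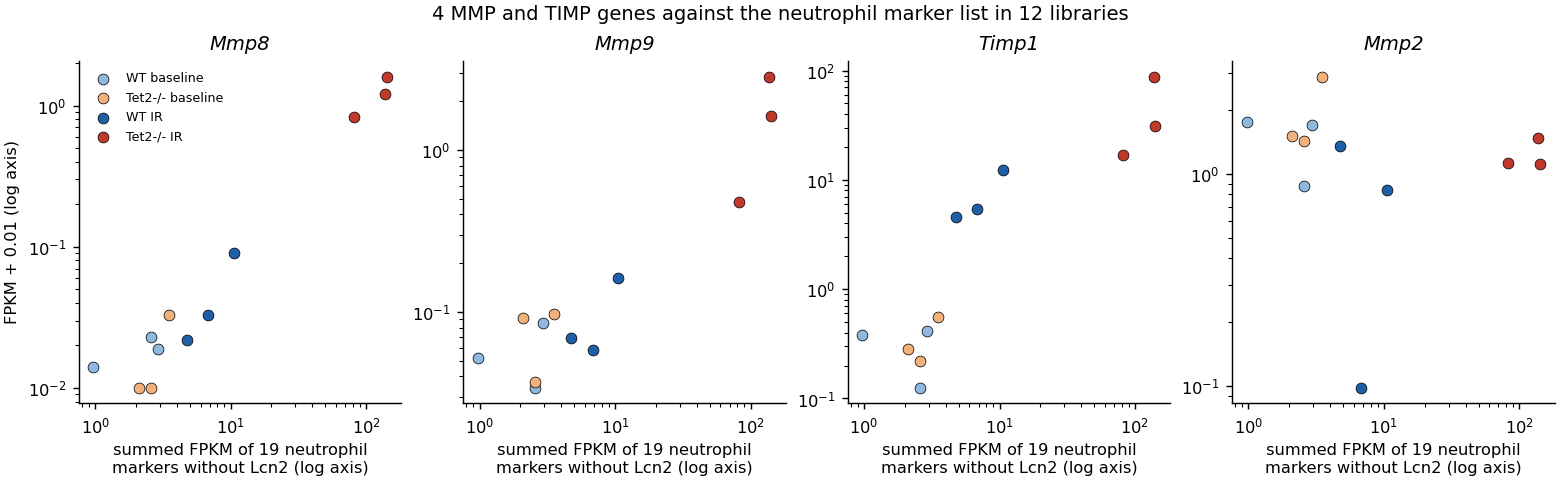
FPKM + 0.01 of Mmp8, Mmp9, Timp1 and Mmp2 against the summed FPKM of 19 neutrophil markers without Lcn2, both on log axes, 1 point per library and 3 per group. The libraries labelled Tet2-/- after IR lie at 82.0 to 142 on the horizontal axis and are highest for Mmp8, Mmp9 and Timp1, while Mmp2 shows no such order.

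The genes whose pattern was most like that of each member were found by the correlation of log2(FPKM + 0.1) over the 12 libraries, among 12923 genes with a mean of at least 1 FPKM in any group. These correlations describe libraries that share the same 4 groups, and carry no test. Mmp8 was closest to Wfdc21 (r = 0.992), Il1r2 (0.990) and Slc7a11 (0.990), and Mmp9 to Itgam (0.98), AI414108 (0.975) and Fpr2 (0.974). Mmp10 was closest to BC061237 (0.981), Saa3 (0.977) and Il6 (0.976), and Mmp3 to Msr1 (0.970), Clec4d (0.964) and Thoc6 (0.963). Mmp7 was closest to Fiz1 (0.982), Mapre1 (0.981) and Fam172a (0.981) and Timp1 to Ranbp1 (0.988), Srm (0.988) and Cks1b (0.985). Mmp14 was closest to Aldh18a1 (0.964), Ccl9 (0.963) and Cyp20a1 (0.963). Mmp2 and Timp2, whose lowest library was the third WT library after IR, were closest to Ifi204 (0.954), Adamts5 (0.951) and Ccm2l (0.947), and to Pdlim4 (0.966), S1pr3 (0.964) and Ltbp1 (0.963). Timp3 had weaker likeness, with Ginm1 (0.915) and Acot12 (0.849) among its closest genes.

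Timp1, Timp2 and Timp3 each share their locus with another gene. Timp1 lies inside Syn1 on the opposite strand, which reached at most 0.243 FPKM, and Timp2 overlaps BC100451, which reached at most 0.087 FPKM. Timp3 lies inside Syn3 on the opposite strand. Syn3, a synapsin, fell with IR in WT (log2 fold change -2.86, adjusted p = 0.00567) and in the group labelled Tet2-/- (-3.62, adjusted p = 0.000321), from 2.67 to 6.76 FPKM over the 6 baseline libraries to 0.323 to 0.957 FPKM over the 6 after IR, while Timp3 was not called in either comparison.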

How the data were processed

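Whole-kidney RNA-seq libraries of 12 mice were used, 3 in each of 4 groups named by the labels. According to the paper's methods and the submitters' processing notes, STAR was used for alignment to mm9 and HOMER for counting over RefSeq genes. The authors deposited expected counts, not normalized, together with FPKM values. Because 38.7% of the count values are fractions ending in 0.5, they were rounded before testing. The design had allowed for whole or estimated counts. For each symbol the transcript with the highest total was used.

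Each comparison used its own 6 libraries (the interaction all 12), TMM scaling, edgeR's low-count filter, the quasi-likelihood test and p-values adjusted by Benjamini-Hochberg across every tested gene, in R 4.3.3 with edgeR 4.0.16. The thresholds follow the paper's Methods and were applied to the fitted log2 fold change. DESeq2 1.42.0 and limma 3.58.1 on log2(FPKM + 1) and log2(FPKM + 0.1) were alternatives, with other scalings, filters, a replicate block, 1 fit of 12 libraries, 10 libraries without WT baseline replicates 2 and 3, and each library left out. The tests were tried on simulated data. Figures were drawn with matplotlib 3.10.9. With 3 libraries against 3, an exact permutation test cannot go below p = 0.1, so none is printed. Nothing in the sources used here says that libraries were pooled or repeated, and they were taken as separate mice.

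The members, lists and tests were chosen with earlier results of these data known. Named genes were the members, Tet2, other MMP and TIMP genes called in any comparison, up to 4 called genes per list and comparison with the largest fold change and a mean FPKM of at least 1, and the 3 likest genes of each member. Some genes that this rule names are not reported here. Mmp12, Mmp1a, Mmp1b, AV064505, Syn1, Syn3, BC100451, Elane, Mpo and Ly6g were added for their position or as defining markers after their values were seen. The remaining marker lists (lymphocytes, fibroblasts, endothelium, distal nephron, podocytes, adipocytes, skeletal muscle, adrenal gland) had 0 genes called between genotypes after IR, except 1 distal nephron gene called lower. With IR in the group labelled Tet2-/-, they had 0, 2, 0, 0, 8, 2, 2 and 1 called higher and 3, 0, 0, 4, 0, 1, 5 and 0 called lower, in the same order.

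Same-numbered libraries of 1 genotype deviated together from their group means. The correlation was at least 0.344 for each WT pair and at least 0.120 for each pair labelled Tet2-/-, so the replicate block was used as an alternative. The pairing comes from these correlations only. The block was also run in the interaction and between genotypes. Between genotypes the correlations ran from -0.173 to 0.0524 at baseline and from -0.000229 to 0.303 after IR.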

Additional observations from a re-analysis of the deposited data

Results flagged for a closer look

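The IR change of Mmp7 differed between genotypes in the interaction test over 12 libraries, with a log2 difference of 4.63 (edgeR, adjusted p = 0.0290), higher in the group labelled Tet2-/-. All 3 libraries of that group after IR lay above all 3 WT libraries after IR, as did 22% of the genes tested there. The log2 difference also includes the baseline difference, which was -2.50 ± 1.07 without the filter (adjusted p = 0.453 from edgeR). At baseline Mmp7 had 41.5 counts over the WT libraries, 30.5 of them in replicate 3, and 8.5 over those labelled Tet2-/-.

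Mmp9 had a log2 difference of 3.52 in the same test (adjusted p = 0.0466), also higher in the group labelled Tet2-/-. Both were picked up because the difference between the genotypes was itself tested, and the calls were not stable. Mmp9 lost its call in 12 of 21 alternatives, 10 of them among the 12 that left out 1 library, and Mmp7 in 7 of 21, 6 of them among those 12. With 1 library left out the log2 difference ranged from 3.34 to 5.495 for Mmp7 and from 2.90 to 4.18 for Mmp9.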

How the results depend on the processing

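Of 734 values over 43 results, 646 kept direction and side of the threshold, 42 lost a call, 12 gained one and 34 changed sign, and the causes of these changes were not tested. Between genotypes after IR, 5 members were called, 6 with DESeq2, with all 12 libraries in a single fit and without WT baseline replicates 2 and 3, 3 with limma on log2(FPKM + 1) and 2 to 4 with 1 library left out. Within WT, 1 was called, 0 without WT baseline replicates 2 and 3, 2 with all 12 libraries in a single fit (Mmp3 added) and 0 to 2 with 1 library left out. The replicate block called 1 member lower there (Timp2, -1.17). Within the group labelled Tet2-/-, 7 were called in every alternative, and 1 lower with no fold change threshold. In the interaction 2 were called, 4 with limma on log2(FPKM + 0.1), 0 without WT baseline replicates 2 and 3, and 0 to 3 with 1 library left out.

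All values that changed sign were uncalled. At baseline, without WT baseline replicates 2 and 3, Mmp9 had a log2 fold change of -0.105 and Timp1 of -0.0884, and with 1 library left out Timp1 ranged from -0.182 to 0.596, Mmp14 from -0.34 to 0.0342 and Timp3 from -0.129 to 0.0254. After IR, Timp2 had 0.0505 with library sizes alone, 0.166 and 0.234 with limma on log2(FPKM + 1) and log2(FPKM + 0.1) and 0.14 with the replicate block, and with 1 library left out it ranged from -0.470 to 0.248 and Timp3 from -0.567 to 0.245. Within the group labelled Tet2-/-, Timp3 had -0.0403 with the block and ranged from -0.338 to 0.499 with 1 library left out. In the interaction, Timp3 had -0.0382 with DESeq2, -0.0128 with upper quartile scaling, -0.0312 with a mean FPKM of at least 1, -0.0026 and -0.0031 with limma, -0.0677 with the block and -0.0475 without WT baseline replicates 2 and 3. With 1 library left out it ranged from -0.458 to 0.297, Mmp2 from -0.364 to 0.854 and Mmp3 from -0.125 to 1.01.

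The replicate block changed no call other than those of Timp2 within WT and Timp1 in the interaction. Library sizes alone in place of TMM moved the median of all genes from 0.04 to 0.27 within the group labelled Tet2-/-, from 0.04 to 0.14 between genotypes after IR, and from 0.10 to 0.24 in the interaction. Low counts limit Mmp8, Mmp10, Mmp3 and Mmp7 at baseline, and 3 libraries a group limit all tests.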

Other observations

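Some libraries stood apart in tissue markers that touch the values above. The mean log2(FPKM + 0.1) of 12 adipocyte markers was 1.96 and 3.32 in WT baseline replicates 2 and 3 and 3.25 in replicate 3 labelled Tet2-/- after IR, against at most 0.34 in the other 9 libraries. Timp4, a TIMP gene outside the members, was at 0.244 and 0.508 FPKM in those WT libraries and at 0.695 FPKM in that Tet2-/- library, against at most 0.092 FPKM in the other 9. It was chosen after its values were seen.

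The ratio of Timp1 to Mmp9 in FPKM was 3.33 to 8.90 at baseline, 76.7 to 112 in WT kidneys after IR and 19.5 to 36 in kidneys labelled Tet2-/- after IR, with no overlap among these 3 sets of libraries. The ratio of Timp1 to Timp2 was 0.0139 to 0.0594, 0.490 to 2.70 and 3.94 to 8.68 in the same order. These are ratios within libraries and were not tested.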
